A study of Mus musculus with 12 samples.

Results

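Atf4 and 9 other genes of the integrated stress response, Atf5, Atf3, Ddit3, Cebpb, Trib3, Chac1, Asns, Ppp1r15a and Ppp1r15b, were followed in total RNA and in ribosome protected fragments (RPF) of activated mouse CD4 T cells with and without Rnmt. They were found by gene symbol, and all 10 were present among the 49585 genes that were counted. RNMT is the enzyme that methylates the guanosine of the mRNA cap, the 5′ structure that the translation machinery binds. Control cells came from mice of genotype Rnmt fl/fl CD4cre -, and Rnmt cKO cells from Rnmt fl/fl CD4cre + mice, so that both carried the floxed allele. CD4-Cre is active in developing T cells and deletes Rnmt exon 3 from the thymus onward. All mice were female, on a C57B6/J background, and their age was not given in the sources used here. Naive CD4 T cells of lymph nodes, selected with a magnetic kit, were stimulated for 20 h on plates coated with antibodies to CD3 (at 5 ug/ml) and CD28 (at 1 ug/ml), and received 0.1 mg/ml cycloheximide for 1 minute before lysis, which halts elongating ribosomes. There were 3 control and 3 Rnmt cKO libraries of total cytoplasmic RNA, with 15079703 to 22629563 reads counted on genes, and 3 and 3 libraries of RPF, with 4123271 to 10661356. The labels number the libraries of each group but do not say which came from 1 mouse, so that the p-values measure the spread between these libraries.

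The integrated stress response is a translational control pathway. Kinases that sense amino acid shortage, unfolded protein, double-stranded RNA or heme deficiency phosphorylate the initiation factor eIF2, which lowers translation of most mRNAs. Some mRNAs with upstream open reading frames in their leaders, Atf4 first among them, are instead translated more, since ribosomes that have read an early upstream frame then pass over a later one that overlaps the start of the coding sequence. ATF4 protein, a bZIP transcription factor, raises transcription of genes for amino acid synthesis and uptake, tRNA charging, the factor CHOP (encoded by Ddit3) and GADD34 (encoded by Ppp1r15a), which brings a phosphatase to eIF2 and ends the response. In T cells, ATF4 is known for its part in amino acid supply after activation.

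The start sites of Atf4 and Atf5 are shown because these leaders are the known basis of the control of both mRNAs. Each sequence below was read from GRCm38 along the principal transcript of the GENCODE vM21 annotation and runs from 9 bases before a start codon to 9 after it, with the ATG in capitals. The leader of Atf4 is 594 bases long and has 3 upstream frames, of 36, 3 and 59 codons, of which the last overlaps the start of the coding sequence. Atf5 has a leader of 373 bases with 2 upstream frames, of 3 and 58 codons, and again the last overlaps. The windows that span a splice junction are given without a range.
Atf4 upstream frame 1, 36 codons (chr15:80255294-80255314, plus strand): ttttctctcATGgggccttta
Atf4 upstream frame 2, 3 codons (chr15:80255573-80255593, plus strand): gcggccaccATGgcgtattag
Atf4 upstream frame 3, 59 codons, overlapping (across a splice junction): gcctaagccATGgcgctcttc
Atf4 coding sequence (chr15:80256290-80256310, plus strand): ccccacaacATGaccgagatg
Atf5 upstream frame 1, 3 codons (chr7:44816526-44816546, minus strand): gcccgcgcaATGgctctgtag
Atf5 upstream frame 2, 58 codons, overlapping (across a splice junction): ttcgccgccATGgagtcctcc
Atf5 coding sequence (chr7:44815155-44815175, minus strand): gtcacagccATGtcactcctg

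Of the other genes, Ppp1r15a and Ppp1r15b had 3 upstream frames each, Atf3, Ddit3 and Asns had 1 each, and Trib3, Chac1 and Cebpb had none. All of these ended before the coding sequence. The frame of Ddit3, of 34 codons, and the last frame of Ppp1r15a, of 26 codons, are the ones known to hold back translation of CHOP and GADD34 in unstressed cells.
Ddit3 upstream frame, 34 codons (chr10:127290820-127290840, plus strand): gattatatcATGttgaagatg
Ppp1r15a upstream frame 3, 26 codons (chr7:45526078-45526098, minus strand): gagggcgacATGaacccgctg
Counts were made over whole genes, so that a fragment protected by a ribosome on an upstream frame was counted together with those on the coding sequence.

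ATF4 binds with C/EBP factors to a composite element, searched here as TGATGNAA on either strand (TTNCATCA on the other) in the 250 bases before each RefSeq start on GRCm38. It was found in 3 of the 10 promoters of these genes, where Atf5 has 2 entries and Ppp1r15b was not in the table, and in 3.45% of all 32851 promoters of the same length. The matches were in Atf3, Chac1 and Asns and are shown in capitals, with 11 bases on either side. They are shown because, within this window, these members hold the letters that ATF4 is known to read. Sequence outside the window was not searched, so that the other members may hold the element elsewhere.
Atf3 (chr1:191183425-191183454, minus strand): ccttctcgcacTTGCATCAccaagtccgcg
Chac1 (chr2:119351038-119351067, plus strand): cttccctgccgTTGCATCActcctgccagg
Asns (chr6:7693214-7693243, minus strand): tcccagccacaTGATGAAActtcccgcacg
In GENCODE the Asns transcript begins upstream of the RefSeq start, so that this last window lies in its leader and also holds the start codon of its upstream frame. A match is a description of the letters, and no binding was measured.

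Rnmt itself (ENSMUSG00000009535, chromosome 18, 68300355 to 68324852) was read first, as a check of the labels. Its total RNA was 95.3, 93.9 and 94.1 CPM (read counts scaled to the library's reads on genes, in parts per 1e6, and normalised by the TMM method) in the controls and 29.3, 32.3 and 30.3 CPM in Rnmt cKO libraries, or -1.62 as log2 fold change (standard error 0.06, adjusted p = 5.8e-06). Throughout, fold changes are Rnmt cKO over control and adjusted p-values come from the quasi-likelihood test of edgeR with Benjamini-Hochberg adjustment over all genes tested, with a threshold of 0.05. In RPF, Rnmt fell from 103.9, 87.7 and 98.7 CPM to 10.5, 10.3 and 9.56 CPM (log2 fold change -3.24, standard error 0.10, adjusted p = 4.8e-06). Values are relative to the RNA sequenced in each library, and in such bulk samples fewer cells of a type and less RNA per cell cannot be told apart. The paper measured less mRNA per cell and fewer translating ribosomes in activated Rnmt cKO cells. Its authors state that falls of single genes are then understated and rises overstated, and they compared translation only in relative terms. The rises below are therefore not gains per cell.

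The cells had the markers of CD4 T cells. The 6 T cell markers (Cd3e, Cd3d, Cd3g, Cd4, Trac and Lck) summed to 2025, 1992 and 1921 CPM in total RNA of controls and to 1319, 1191 and 1382 CPM in Rnmt cKO libraries, and 4 of 6 fell, among them Cd3g (log2 fold change -1.23, standard error 0.11) and Lck (-0.90, standard error 0.06). In RPF their sum was 4763, 4287 and 4522 CPM against 3535, 3125 and 3482 CPM, and again 4 of 6 fell, or 2 of 6 without Rnmt cKO 1 and 2. The libraries also held traces of B cell RNA at uneven levels. The 5 B cell markers used (Cd79a, Cd79b, Ms4a1, Pax5 and Ebf1) summed to 7.26, 4.86 and 25.7 CPM in total RNA of control 1, 2 and 3, and to 67.3, 88.5 and 15.1 CPM in Rnmt cKO 1, 2 and 3. In RPF the sums were 9.19, 7.67 and 28.9 CPM, and 93.7, 109.9 and 16.2 CPM. The high libraries were thus Rnmt cKO 1 and 2 in both kinds, Ms4a1 was the most abundant marker of Rnmt cKO cells in both kinds (27.4 CPM on average in total RNA), and no B cell marker was at 0 in all libraries of a group. Of the 4 B cell markers tested in total RNA, 2 rose, Cd79b and Ms4a1, and the same 2 rose in RPF. Ebf1 was at 0.564 ± 0.617 CPM in control RPF and at 3.35 ± 1.76 CPM in Rnmt cKO RPF. It thus passed the filter mainly through the group where it is high, and its call there is not counted. Without Rnmt cKO 1 and 2, the log2 fold changes in total RNA and RPF were 0.69 and -0.40 for Cd79b. For Ms4a1 they were 0.36 and 0.42. CD8 markers (Cd8a and Cd8b1) summed to 21.4, 21.4 and 41.6 CPM in control and 26.4, 21.3 and 9.83 CPM in Rnmt cKO total RNA and did not pass the test, whereas both were called lower in total RNA without Rnmt cKO 1 and 2. Those of myeloid cells summed to no more than 4.41 CPM in any library, with Cd68 the most abundant in every group (1.18 of a mean sum of 1.64 CPM in Rnmt cKO total RNA), Cd14 at 0 in both control groups and Adgre1 at 0 in Rnmt cKO RPF. Those of NK cells (Klre1 foremost) summed to 0.211 to 0.265 CPM in control and 1.08 to 1.83 CPM in Rnmt cKO total RNA, and none passed the filter. The part of these cells in the results below was not tested, but each count was also taken with Rnmt cKO 1 and 2 left out, a choice made after these values were seen, which leaves 1 Rnmt cKO library that is assumed to vary as the controls do.

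In total RNA, 9 of the 10 genes passed the filter on low counts (above 1 CPM in at least 3 of the 6 libraries), and Chac1 did not. Of these 9, 3 rose (Atf3, Ppp1r15a and Ppp1r15b), 1 fell (Ddit3) and 5 did not pass the test, with Rnmt cKO called higher for 26.2% and lower for 28.0% of all 11519 genes tested. The median log2 fold change was -0.0054 over the 9 genes and -0.0041 over all genes. In RPF, 4 of 9 rose (Atf4, Atf3, Ppp1r15a and Ppp1r15b) and 0 fell, where 14.1% of all 11428 genes were called higher and 15.7% lower, with medians of 0.080 and 0.0071. By edgeR the number of falls in RPF was 0 at an unadjusted p under 0.05 too, and it was 0 with DESeq2 and with the exact test of edgeR. Without Rnmt cKO 1 and 2, 1 gene rose and 1 fell in total RNA (Atf3 and Ddit3) and 1 rose in RPF (Atf3), while over all genes the calls in RPF went from 1610 higher and 1799 lower to 468 and 523.

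**Figure D1:**
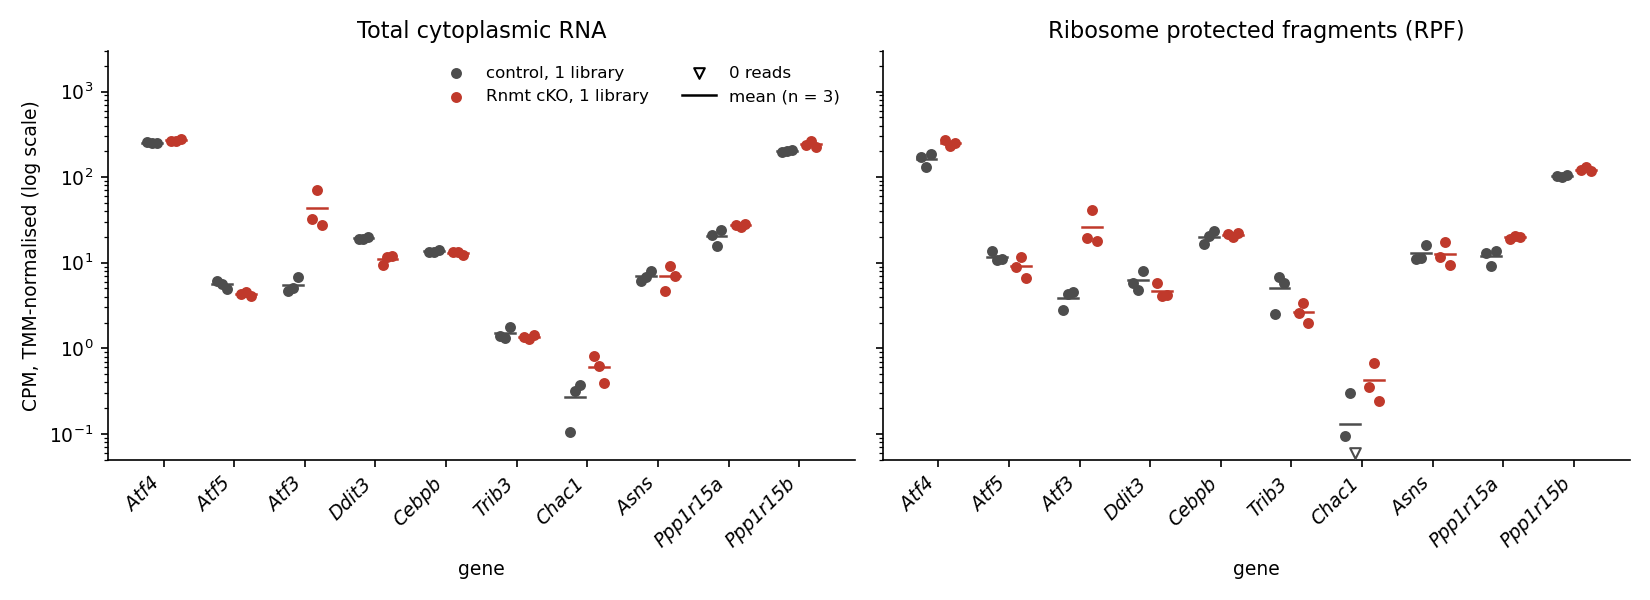
Each point is 1 library and each line the mean of 3, in TMM-normalised CPM on a log axis, for total RNA (left) and RPF (right), with control in grey and Rnmt cKO in red. All Rnmt cKO libraries lie above the controls for Atf4, Atf3, Ppp1r15a and Ppp1r15b in both panels. Ddit3 and Atf5 lie below in total RNA, and Chac1 is near the lower end with 0 reads in 1 control RPF library. The share of all genes whose genotypes do not overlap was not taken, so that a lack of overlap, here and below, only describes each gene.

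Atf4 (ENSMUSG00000042406, chromosome 15, 80255184 to 80257541, plus strand) was the most abundant of the 10 mRNAs. Its total RNA was 258.7, 249.7 and 249.9 CPM in controls and 267.0, 264.9 and 279.2 CPM in Rnmt cKO libraries. The Rnmt cKO libraries were the higher ones without overlap, but by little, and their difference, 0.10 on the log2 scale (standard error 0.05, adjusted p = 0.16), did not pass the test. In RPF, Atf4 was at 174.1, 133.2 and 184.8 CPM in controls and at 271.8, 230.1 and 249.4 CPM in Rnmt cKO libraries. Here the groups stood well apart, control 2 being the lowest, and Atf4 rose 1.52-fold (log2 fold change 0.61, standard error 0.12, adjusted p = 0.0071). It passed the threshold in all 13 alternatives set for RPF, between 0.48 and 0.70, while without Rnmt cKO 1 and 2 the log2 fold change was 0.60 and the call was lost (adjusted p = 0.082).

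Translation efficiency (TE), the RPF relative to the total RNA of a gene, was compared through the interaction term of a fit to all 12 libraries, which asks whether genotype acts differently on RPF and on total RNA. It shares its libraries with the comparisons above, and it takes the 12 libraries as independent, unlike the fits with limma and with the replicate block below. Of the 9 genes, Atf4 alone was called, with a TE that was 1.42-fold higher in Rnmt cKO cells (0.51 on the log2 scale, standard error 0.14, 95% interval 0.20 to 0.82, adjusted p = 0.041). Over all 10668 genes tested for TE, 3.16% were called higher and 6.65% lower, and the medians were 0.035 over the 9 genes and 0.030 over all. The sign was the same in each alternative, but the call was near the threshold. It was lost without TMM (0.50, adjusted p = 0.064), without control 1 (0.53, adjusted p = 0.12), control 2 (0.39, adjusted p = 0.083), Rnmt cKO 1 (0.43, adjusted p = 0.18), Rnmt cKO 2 (0.54, adjusted p = 0.070) or Rnmt cKO 3 (0.53, adjusted p = 0.062), and was kept without control 3, with DESeq2, with limma and with the replicate block. Without both Rnmt cKO 1 and 2 it was 0.42 (adjusted p = 0.38).

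**Figure D2:**
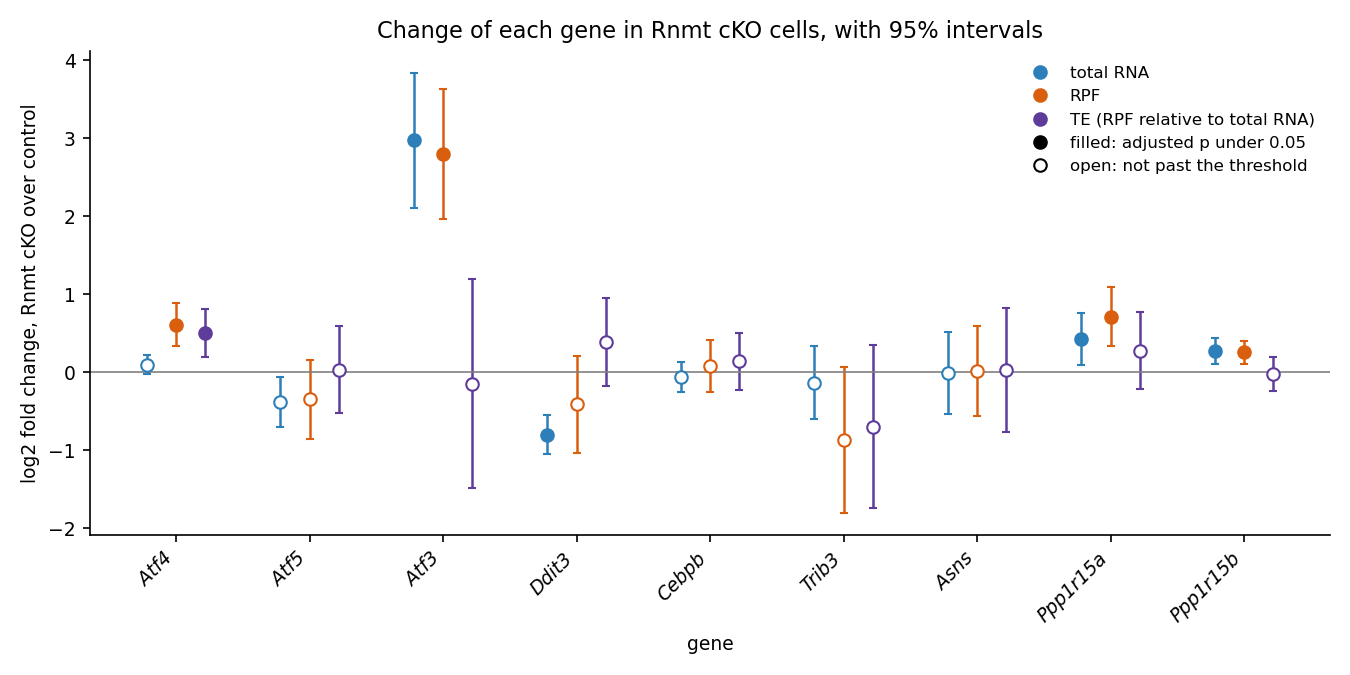
Each point is a log2 fold change between the genotypes, Rnmt cKO relative to control, for 9 genes in total RNA (blue), RPF (orange) and TE (purple), with unadjusted 95% intervals, filled where the adjusted p was under 0.05. Atf4 is filled in RPF and TE but open in total RNA, whereas Atf3 lies near 3 in both kinds of library with a TE interval from -1.48 to 1.19.

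Atf5 (ENSMUSG00000038539, chromosome 7, 44812256 to 44816658, minus strand) encodes another bZIP factor with the same kind of leader. Its total RNA was 6.20, 5.71 and 4.90 CPM in controls and 4.34, 4.58 and 4.05 CPM in Rnmt cKO libraries, all lower than the controls, but at a log2 fold change of -0.38, with standard error 0.14, the adjusted p of 0.0502 missed the threshold. That call turned with 2 of 13 alternatives, to an adjusted p of 0.032 without control 3 and of 0.050 with at least 10 counts in every library. In RPF the groups overlapped, at 13.6, 10.7 and 11.1 CPM against 8.99, 11.7 and 6.62 CPM. The difference in TE was 0.035 on the log2 scale (95% interval -0.52 to 0.59), so that a change of the size seen for Atf4 lies inside the interval.

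Atf3 had the largest change of the 10 genes in both kinds of library. ATF3 is a stress-induced bZIP factor of immediate early kind, and its gene (ENSMUSG00000026628) lies on chromosome 1 from 191170296 to 191218039. Total RNA rose from 4.66, 5.13 and 6.83 CPM to 32.5, 70.1 and 27.8 CPM, 7.85-fold (log2 fold change 2.97, standard error 0.38, adjusted p = 3.9e-04), and RPF from 2.81, 4.36 and 4.53 CPM to 19.5, 41.3 and 18.2 CPM (2.80, standard error 0.36, adjusted p = 0.0011). Rnmt cKO 2 was the highest in both kinds, and it was also the library with most B cell RNA. With Rnmt cKO 1 and 2 left out the log2 fold changes were 2.35 in total RNA and 2.23 in RPF, both past the threshold. TE was not called (-0.15, 95% interval -1.48 to 1.19).

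Ddit3, which encodes CHOP, was the one gene of the 10 that fell. Its total RNA was 18.8, 19.0 and 19.9 CPM in controls and 9.42, 11.6 and 11.9 CPM in Rnmt cKO libraries, with no overlap. The log2 fold change was -0.80 (standard error 0.11, adjusted p = 5.3e-04), and it passed the threshold in all 13 alternatives and without Rnmt cKO 1 and 2. RPF rested on 17 to 66 reads per library and overlapped, at 5.81, 4.81 and 8.07 CPM against 5.72, 4.09 and 4.17 CPM (log2 fold change -0.41, adjusted p = 0.28). Ddit3 lies on chromosome 10 from 127290774 to 127296288 (ENSMUSG00000025408). The difference in TE was 0.38 (95% interval -0.18 to 0.95) and was not called. Cebpb, a C/EBP factor that pairs with ATF4 and CHOP (chromosome 2, 167688915 to 167690418), was at 13.6 ± 0.340 CPM (SD, n = 3) and 13.0 ± 0.472 CPM in total RNA and at 20.1 ± 3.49 CPM and 21.2 ± 1.18 CPM in RPF of control and Rnmt cKO cells. Its log2 fold changes were -0.062 (95% interval -0.26 to 0.13) and 0.080 (95% interval -0.25 to 0.41).

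The 3 members that are known mainly as targets of ATF4 were low and were not called. Trib3, a pseudokinase that restrains ATF4 and CHOP, was at 1.38, 1.32 and 1.78 CPM in control and at 1.36, 1.29 and 1.42 CPM in Rnmt cKO total RNA. In RPF it was at 2.53, 6.77 and 5.87 CPM against 2.57, 3.41 and 1.96 CPM, from 8 to 48 reads per library. There the log2 fold change of -0.86 (adjusted p = 0.15) was called without control 1, which was the low control (-1.21, adjusted p = 0.034). Asns, asparagine synthetase, was at 7.01 ± 0.945 CPM (SD, n = 3) and 6.92 ± 2.22 CPM in total RNA and at 12.9 ± 2.90 CPM and 12.8 ± 4.20 CPM in RPF. Its log2 fold changes were -0.0054 (95% interval -0.53 to 0.52) and 0.014 (95% interval -0.56 to 0.59), and the first of these intervals would hold a change of the size that Ppp1r15a had in total RNA.

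Chac1, a glutathione-degrading enzyme, was close to the limit of detection. It had 2, 6 and 7 reads in control and 12, 12 and 9 in Rnmt cKO total RNA, and 1, 2 and 0 against 3, 7 and 1 in RPF. With 0 of 8214622 reads in RPF of control 3, a level of up to 0.365 CPM (3 counts) is allowed by counting error alone. Fitted without the filter on low counts it had log2 fold changes of 1.11 (adjusted p = 0.081) in total RNA and 1.75 (adjusted p = 0.45) in RPF.

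Both genes for the subunits that direct protein phosphatase 1 to eIF2 rose. Ppp1r15a, the stress-induced one (chromosome 7, 45522916 to 45526268), went in total RNA from 21.3, 15.8 and 24.4 CPM to 27.9, 26.5 and 28.2 CPM (log2 fold change 0.43, standard error 0.15, adjusted p = 0.038), and in RPF from 13.0, 9.17 and 13.8 CPM to 19.0, 20.4 and 19.9 CPM (0.71, standard error 0.17, adjusted p = 0.014). In neither kind did the genotypes overlap, and the controls were spread more widely than the Rnmt cKO libraries. The total RNA call was lost without control 1 (0.45, adjusted p = 0.080), control 2 (0.26, adjusted p = 0.063), Rnmt cKO 1 (0.43, adjusted p = 0.082) or Rnmt cKO 3 (0.42, adjusted p = 0.065), and that in RPF without Rnmt cKO 2 (0.69, adjusted p = 0.051). Without Rnmt cKO 1 and 2 the values were 0.49 (adjusted p = 0.10) and 0.71 (adjusted p = 0.16).

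Ppp1r15b, the constitutive partner (CReP; chromosome 1, 133131143 to 133139783), was more abundant and changed less. Total RNA went from 195.4, 200.7 and 208.5 CPM to 240.7, 265.4 and 225.0 CPM (log2 fold change 0.27, standard error 0.07, adjusted p = 0.013), and RPF from 102.6, 101.4 and 104.6 CPM to 121.1, 130.3 and 116.7 CPM (0.26, standard error 0.06, adjusted p = 0.019). The libraries did not overlap in either kind. In total RNA the call was lost without control 1 (0.25, adjusted p = 0.058), and in RPF without control 1 (0.25, adjusted p = 0.063), control 2 (0.24, adjusted p = 0.054) or Rnmt cKO 2 (0.22, adjusted p = 0.059) and without a filter on low counts (0.22, adjusted p = 0.092). With Rnmt cKO 1 and 2 left out, Ppp1r15b was at 0.19 in total RNA (adjusted p = 0.087) and at 0.18 in RPF (adjusted p = 0.26). In TE, Ppp1r15a was at 0.27 (95% interval -0.22 to 0.77) and Ppp1r15b at -0.020 (95% interval -0.23 to 0.19), and neither was called.

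Per kilobase of exon, total RNA of controls ranked Atf4 first at 107 ± 2.19 CPM per kb (SD, n = 3), then Ppp1r15b at 36.0 ± 1.18, Ddit3 at 11.2 ± 0.336, Cebpb at 9.01 ± 0.226 and Ppp1r15a at 6.97 ± 1.49 CPM per kb. Below these came Atf5 at 2.81 ± 0.329, Atf3 at 2.57 ± 0.531 and Asns at 2.56 ± 0.345 CPM per kb, whose libraries overlapped so that their order is not resolved, and then Trib3 at 0.702 ± 0.117 and Chac1 at 0.163 ± 0.0869 CPM per kb. In Rnmt cKO cells Atf4 was again first, at 115 ± 3.28 CPM per kb, and Atf3, at 20.2 ± 10.8 CPM per kb with a range from 12.9 to 32.6, lay above Ddit3, at 6.42 ± 0.804.

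The level of TE within a genotype was described, with no test, as the log2 ratio of RPF to total RNA of libraries with the same number, with the median gene of each pair set to 0. The ratio was not corrected for length, and the coding sequence made up 27.4% (Atf3) to 84.5% (Ppp1r15a) of the transcript. The order of genes below therefore holds for uncorrected ratios only. Per kb, of coding sequence in RPF and of exon in total RNA, control means were 12.4 and 11.2 CPM for Ddit3. For Ppp1r15a they were 6.09 and 6.97 CPM, and for Atf4 157 and 107 CPM. They were 49.2 and 36.0 CPM for Ppp1r15b, and 7.18 and 2.57 CPM for Atf3. The RPF values per kb include fragments on upstream frames, since counts were made over whole genes but divided by the coding length. No per kb value of the median gene is given here. The 9 genes fell on both sides of the median gene. In controls Ddit3 was lowest, at -1.75 ± 0.306 (SD, n = 3) at percentile 5.17 of the 10668 genes, followed by Ppp1r15b at -1.14 ± 0.0388, Ppp1r15a at -0.92 ± 0.0589, Atf4 at -0.81 ± 0.232 and Atf3 at -0.64 ± 0.232. Cebpb at 0.36 ± 0.217, Asns at 0.65 ± 0.133, Atf5 at 0.84 ± 0.132 and Trib3 at 1.22 ± 0.661 lay above the median gene. By these uncorrected ratios, 5 of the 7 tested genes with upstream frames were below the median gene and Atf5 and Asns above it. Of the genes without such frames, Trib3 and Cebpb were above it, and Chac1, which was not tested, was at -0.46. As many of all genes lie below the median gene as above it, and a link with upstream frames was not tested. The 3 values of Ppp1r15a and of Ppp1r15b varied little, whereas those of Trib3 ran from 0.52 to 1.83. In Rnmt cKO cells Atf4 went from percentile 19.7 to 37.6, at -0.16, -0.39 and -0.35 against -0.74, -1.07 and -0.62 in controls, without overlap. Ppp1r15a went from percentile 17.1 to 24.0, also without overlap, and Trib3, with overlap, from percentile 91.4 to 74.2.

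**Figure D3:**
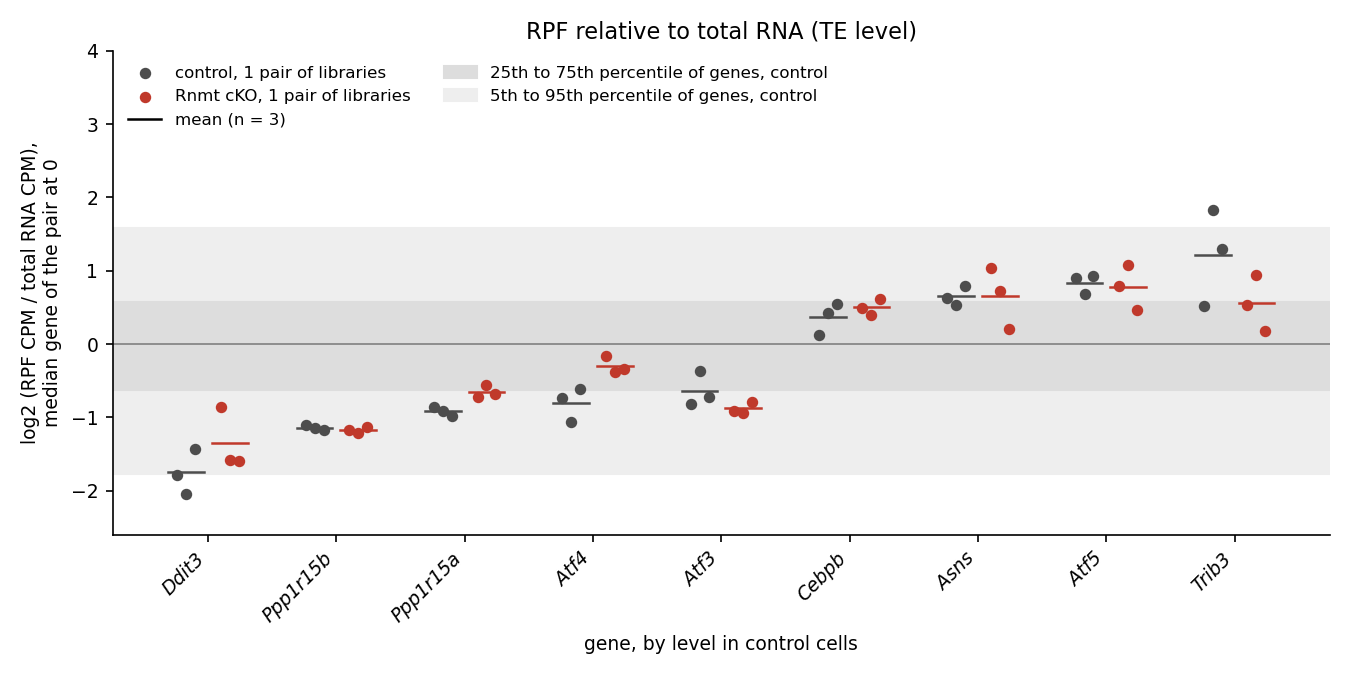
Points are log2 ratios of RPF to total RNA CPM for each pair of libraries with the same number, with the median gene of the pair at 0, lines are means of 3, and the bands hold the middle 50% and 90% of all genes in controls. Ddit3 lies lowest and Trib3 highest in controls, and the 3 Rnmt cKO points of Atf4 lie above its 3 control points.

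The genes around these members were taken from 11 lists of the pathway. Their counts stand beside the shares of all genes called higher and lower, which were 26.2% and 28.0% in total RNA, 14.1% and 15.7% in RPF and 3.16% and 6.65% in TE. Among the 4 eIF2 kinases, Eif2ak2, the kinase PKR that senses double-stranded RNA, rose in total RNA (log2 fold change 0.28, standard error 0.10, adjusted p = 0.042), in a call that was lost in 5 of 14 alternatives. Eif2ak1, Eif2ak3 and Eif2ak4 (HRI, PERK and GCN2) had log2 fold changes between -0.13 and 0.12 and were not called, and no kinase was called in RPF or TE. In RPF all 4 were between -0.0051 and 0.11. The kinases act by their activity, which RNA levels do not measure.

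Of 10 genes for eIF2, its exchange factor eIF2B and the start-codon factors eIF5 and eIF1, 8 rose and 1 fell in total RNA, with a median log2 fold change of 0.49 against -0.0041 over all genes. Eif2s1, which encodes the phosphorylated subunit eIF2 alpha, rose from 172.4 ± 3.78 to 317.2 ± 10.2 CPM (SD, n = 3; 0.88, standard error 0.05), and Eif1 from 15.8 ± 2.72 to 26.4 ± 6.09 CPM (0.74, standard error 0.19), a value that is uncertain where its reads are shared with near-identical copies. Eif2s3x fell (-0.30, standard error 0.10), a call lost in 8 of 14 alternatives. In RPF 4 of 10 rose and 0 fell, with Eif2b3 (0.47, standard error 0.09) and Eif5 (0.41, standard error 0.07) first and a median of 0.17. In TE 0 rose and 3 fell, with a median of -0.28 against 0.030 over all genes. Those were Eif2b4 (-0.55, standard error 0.10), Eif2s1 (-0.54, standard error 0.13), whose call was lost in 4 of 14 alternatives, and Eif2b5 (-0.52, standard error 0.10). Without Rnmt cKO 1 and 2 the counts were 7 rises in total RNA, 0 in RPF and 1 fall in TE.

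Of 9 genes that ATF4 is known to induce for amino acid synthesis, 2 rose, 3 fell and 4 were not called in total RNA (median log2 fold change 0.023), shares near those of all genes, 26.2% higher and 28.0% lower. The 3 that fell encode enzymes of serine synthesis, with Phgdh from 58.3 ± 8.28 to 44.7 ± 4.95 CPM (SD, n = 3; -0.38, standard error 0.12), Psph from 60.8 ± 4.96 to 45.7 ± 3.90 CPM (-0.41, standard error 0.09) and Psat1 from 250.7 ± 9.79 to 194.9 ± 0.140 CPM (-0.36, standard error 0.05). Gpt2, an alanine aminotransferase, rose (1.05, standard error 0.15), as did Aldh18a1, an enzyme of proline synthesis (0.26, standard error 0.06). The total RNA call of Phgdh was lost in 6 of 14 alternatives, and without Rnmt cKO 1 and 2 neither Phgdh (-0.36, adjusted p = 0.095) nor Psph (-0.28, adjusted p = 0.075) was called. In RPF, of 10 tested, 2 rose and 3 fell, and the falls were again Phgdh (-0.41, standard error 0.08), Psph (-0.38, standard error 0.06) and Psat1 (-0.31, standard error 0.07). Cth, tested in RPF alone and not called, averaged 0.835 CPM in controls and 2.24 CPM in Rnmt cKO cells. It passed the filter mainly through the latter. Shmt2, which makes glycine in mitochondria, rose in RPF (0.30, standard error 0.08) and so did Pycr1 (0.53, standard error 0.17), although the call of Shmt2 was lost in 6 and that of Pycr1 in 12 of 14 alternatives. The RPF counts without Rnmt cKO 1 and 2 were 0 and 1, with Psph called and Phgdh at -0.46 (adjusted p = 0.059). In TE, Aldh18a1 fell (-0.42, standard error 0.08), a call that was lost without Rnmt cKO 1 and 2 (-0.46, adjusted p = 0.10), and 8 of 9 were not called.

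Of the amino acid transporters, 4 of 7 rose and 2 fell in total RNA (median log2 fold change 0.30). Slc7a5 and Slc3a2, the light and heavy chains of the LAT1 transporter of large neutral amino acids, both rose, Slc7a5 from 88.1 ± 0.398 to 150.4 ± 17.4 CPM (SD, n = 3; 0.77, standard error 0.08) and Slc3a2 from 60.8 ± 4.68 to 90.6 ± 7.13 CPM (0.57, standard error 0.08). Slc7a1, a transporter of cationic amino acids, rose as well (0.64, standard error 0.20), with the call lost in 5 of 14 alternatives, whereas Slc1a5 (-0.27, standard error 0.05) and Slc6a9 (-0.95, standard error 0.23) fell. In RPF 3 of 7 rose and 0 fell. Slc7a1 went from 204.1 ± 10.5 to 295.7 ± 23.1 CPM (0.54, standard error 0.07) and Slc7a5 from 200.2 ± 10.6 to 246.0 ± 3.06 CPM (0.30, standard error 0.06). The TE of Slc7a5 fell (-0.48, standard error 0.11), a call lost in 4 of 14 alternatives, among them that without Rnmt cKO 1 and 2 (-0.35, adjusted p = 0.17). Leaving out Rnmt cKO 1 and 2, 2 transporters rose and 2 fell in total RNA, and 1 rose in RPF.

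Of the 12 tRNA synthetases, 4 rose and 2 fell in total RNA (median log2 fold change 0.055), near the 26.2% and 28.0% of all genes, and 0 rose and 2 fell in RPF (median -0.055), where all genes had 14.1% and 15.7%. Eprs, the glutamyl-prolyl synthetase, rose in total RNA from 426.6 ± 4.52 to 631.2 ± 16.0 CPM (SD, n = 3; 0.57, standard error 0.05) and fell in RPF from 580.4 ± 19.5 to 459.7 ± 48.7 CPM (-0.34, standard error 0.08). Its TE fell by 0.90 on the log2 scale (standard error 0.10, adjusted p = 1.5e-04), and that of Tars by 0.31 (standard error 0.09), a call lost in 8 of 14 alternatives. Tars rose in total RNA (0.33, standard error 0.05), Sars (-0.35, standard error 0.08) and Lars (-0.47, standard error 0.06) fell, and the fall of Lars in RPF (-0.27, standard error 0.09) was lost in 9 of 14 alternatives.

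Among 7 other ATF4 targets that passed the filter, of 14 listed, 2 rose and 0 fell in total RNA (median log2 fold change 0.054). Both are inhibitors of mTORC1, the kinase complex of growth control. Sesn2 rose from 14.8 ± 1.25 to 40.1 ± 3.35 CPM (SD, n = 3; 1.44, standard error 0.10, adjusted p = 2.6e-05) and Ddit4 from 31.6 ± 4.07 to 75.2 ± 4.40 CPM (1.25, standard error 0.10, adjusted p = 4.8e-05). In RPF, Sesn2 rose from 16.4 ± 2.16 to 51.6 ± 1.50 CPM (1.66, standard error 0.11), Ddit4 from 133.8 ± 15.0 to 259.5 ± 27.1 CPM (0.95, standard error 0.10) and Xpot, the tRNA exporter, from 95.3 ± 2.12 to 110.6 ± 3.41 CPM (0.22, standard error 0.06). Without Rnmt cKO 1 and 2, Sesn2 was at 1.53 in total RNA and 1.67 in RPF, and Ddit4 at 1.18 and 1.12. The RPF call of Xpot was lost in that fit. Sesn2 and Ddit4 are also known to answer to p53, hypoxia or glucocorticoids. Herpud1, Eif4ebp1, Vegfa and Cebpg were not called in either kind, and none of the 7 was called in TE.

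ATF4 and CHOP bind DNA as dimers with other bZIP proteins, of whose genes 15 of 19 passed the filter. In total RNA 6 rose and 3 fell (median log2 fold change 0.13), and in RPF 5 rose and 1 fell (median 0.20). Jun, the AP-1 subunit, rose from 8.69 ± 3.27 to 46.6 ± 5.92 CPM (SD, n = 3; 2.42, standard error 0.24, adjusted p = 1.3e-04) in total RNA and from 20.1 ± 7.41 to 118.9 ± 14.7 CPM (2.57, standard error 0.22) in RPF. Junb rose by 1.19 in both (standard errors 0.07 and 0.09). Creb1 fell from 146.8 ± 8.48 to 87.8 ± 3.72 CPM (-0.74, standard error 0.06) in total RNA and by 0.60 in RPF (standard error 0.08), and Maf fell in total RNA (-0.82, standard error 0.27), with the call lost in 5 of 14 alternatives. None of the 15 was called in TE. Without Rnmt cKO 1 and 2, 4 rose and 2 fell in total RNA and 2 rose and 1 fell in RPF, with Jun and Junb called in both.

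The other branches of the unfolded protein response, those of XBP1 and ATF6, had 7 rises and 1 fall among 16 genes in total RNA (median log2 fold change 0.24) and 3 rises and 1 fall in RPF (median 0.13). Xbp1 rose by 0.82 (standard error 0.09) in total RNA and from 63.7 ± 2.26 to 101.6 ± 15.8 CPM (SD, n = 3; 0.68, standard error 0.11) in RPF. Edem1, which takes part in the disposal of misfolded glycoproteins, rose by 0.57 (standard error 0.07) and 0.65 (standard error 0.09). The ER chaperone gene Sdf2l1 fell in total RNA (-0.52, standard error 0.08) and Pdia4, a protein disulfide isomerase, in RPF (-0.31, standard error 0.07). The RPF counts without Rnmt cKO 1 and 2 were 2 rises and 0 falls, with Pdia4 at an adjusted p of 0.12. No gene of the list was called in TE.

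Of 7 genes for mitochondrial stress proteins, 2 rose and 4 fell in total RNA (median log2 fold change -0.21), and none was called in RPF (median 0.020), where edgeR gave 1 higher and 1 lower at an unadjusted p under 0.05 and DESeq2 called 0. OMA1 and DELE1 carry the mitochondrial signal to the kinase HRI. In total RNA Oma1 fell from 21.9 ± 1.17 to 17.7 ± 0.610 CPM (SD, n = 3; -0.32, standard error 0.08) and Dele1 from 34.2 ± 1.46 to 26.1 ± 1.34 CPM (-0.39, standard error 0.07). Hspe1, the co-chaperonin, fell (-0.44, standard error 0.07; near-identical copies make its value uncertain), while Clpp, a matrix protease, rose (0.41, standard error 0.06). Hspa9, the mitochondrial HSP70, rose in total RNA from 553.3 ± 8.90 to 854.3 ± 21.0 CPM (0.63, standard error 0.06), was at 801.8 ± 49.8 and 783.5 ± 55.7 CPM in RPF, and fell in TE (-0.66, standard error 0.10, adjusted p = 9.0e-04).

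Atf4 is not the only mRNA whose upstream frames are known to favour translation in stress. Of 7 others, which include Eprs and Slc7a1 of the lists above, 4 rose and 1 fell in total RNA (median log2 fold change 0.57), 2 rose and 1 fell in RPF among 6, not counting Ptp4a1, and in TE 0 rose and Eprs fell. Ifrd1, a transcriptional coregulator, rose from 46.9 ± 2.89 to 131.6 ± 5.08 CPM (SD, n = 3; 1.49, standard error 0.07) in total RNA and from 23.0 ± 2.10 to 70.8 ± 5.84 CPM (1.62, standard error 0.10) in RPF. Ptp4a1, a phosphatase, rose in total RNA (1.33, standard error 0.13). In RPF it was at 0.457 ± 0.163 CPM in controls and 1.59 ± 0.755 CPM in Rnmt cKO cells, so that it passed the filter only through the group where it is high, and its call there is not counted. Ibtk fell in total RNA (-0.25, standard error 0.07), with the call lost in 5 of 14.

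Among 10 regulators of ATF4, CHOP or the phosphatase, 6 rose and 1 fell in total RNA (median log2 fold change 0.24), and 1 rose and 1 fell in RPF (median 0.13). Trib1, the relative of Trib3 that directs C/EBP proteins to degradation, rose from 6.13 ± 1.58 to 23.0 ± 3.63 CPM (SD, n = 3; 1.91, standard error 0.19) in total RNA and from 10.8 ± 1.89 to 40.1 ± 6.40 CPM (1.89, standard error 0.17) in RPF. The gene for the activator of GCN2, listed as Gcn1l1, rose in total RNA from 110.3 ± 5.16 to 169.8 ± 22.2 CPM (0.62, standard error 0.10) and fell in TE (-0.83, standard error 0.15, adjusted p = 0.0031). Btrc, which marks ATF4 for degradation, fell in total RNA (-0.44, standard error 0.09). Ppp1ca, a catalytic subunit of protein phosphatase 1, fell in RPF (-0.40, standard error 0.07) and in TE (-0.46, standard error 0.12), the TE call being lost in 6 of 14 alternatives. Without Rnmt cKO 1 and 2 the counts were 3 rises and 1 fall in total RNA, 1 rise and 0 falls in RPF (Ppp1ca at an adjusted p of 0.053) and 0 rises and 1 fall in TE.

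Where a list had 0 calls in one direction of TE by edgeR, single genes came near the threshold. At an unadjusted p under 0.05, the TE of 1 transporter, 1 gene of the XBP1 and ATF6 branches, 3 mitochondrial genes and 1 regulator was higher, and DESeq2 called 1 in each of these 4 lists. The same held at that p for 1 gene of amino acid synthesis and 1 tRNA synthetase, of which DESeq2 called 0, while 1 bZIP gene and 3 of the XBP1 and ATF6 branches were lower at that p, of which DESeq2 called 0 and limma called 0 and 2. For the eIF2 kinases, the eIF2 and eIF2B genes, the other ATF4 targets and the other mRNAs with upstream frames, each count of 0 above was 0 at an unadjusted p under 0.05 and with DESeq2 too. With Rnmt cKO 1 and 2 left out, 2188 of all 11119 genes tested in total RNA were called higher and 2313 lower, and the rises and falls were 2 and 1 for amino acid synthesis, 3 and 1 for tRNA synthetases, 6 and 1 for the XBP1 and ATF6 branches, 2 and 2 for the mitochondrial genes and 3 and 1 for the other mRNAs with upstream frames.

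The 5 genes most like Atf4 were sought by the Pearson correlation of log2 CPM over the 12 libraries, after taking off the mean of each kind, among 6604 genes with an average of at least 4 log2 CPM in both kinds. They were Tmem243 (r = 0.98), Cbfb (0.97), Rnf11 (0.96), Nf2 (0.96) and Pex7 (0.95). The libraries share genotype and depth, so that r is a description of their pattern. Each was nearly level in total RNA, with log2 fold changes between 0.0077 and 0.13, and higher in RPF of Rnmt cKO cells, between 0.35 and 0.56. Atf4 itself was at 0.10 and 0.61. The genes were chosen for a pattern like that of Atf4 in these same libraries, so that their fold changes follow from the choice.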

How the data were processed

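Total cytoplasmic RNA and RPF of 12 mouse CD4 T cell libraries were analysed, 3 in each of 4 groups taken from the labels. The authors used read 2 because read 1 failed, trimmed adapters with Cutadapt, removed rRNA and tRNA reads with Bowtie, aligned to mm10 with STAR 2.5.2b (per the methods and the submitters' processing notes) and deposited counts of uniquely aligned reads per gene, without normalization. Near-identical copies of a gene are undercounted in this way. A second deposited table of 10126 genes holds normalized signal values per library, used only to choose the strand, and 18 columns of the authors' means, log2 fold changes and p-values, which were not used. The counts on the strand that matched this signal were taken. Between 41.1 and 70.4% of reads per library named no gene (unmapped, multimapping, no feature or ambiguous) and were left out of library sizes.

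Genes with more than 1 CPM in at least 3 of 6 libraries were normalised by TMM and compared with glmQLFTest of edgeR 4.0.16 (R 4.3.3), whereas TE was the interaction term of a fit to 12 libraries, each kind normalised by itself. Benjamini-Hochberg adjustment ran over all genes, with a threshold of 0.05. At these depths, log2 fold changes had median standard errors of 0.10 (total RNA), 0.12 (RPF) and 0.16 (TE). Scripts were tested on simulated data. TE levels used a pseudocount of 0.5 CPM, and log2 CPM a prior count of 2. Lengths, leaders and start codons came from GENCODE vM21 (the authors counted on vM12), promoters from RefSeq. Total RNA and RPF libraries of 1 genotype with the same number deviated together from their group means in each of 6 pairs (r from 0.11 to 0.38). On this ground the numbers were taken to pair samples for the TE levels and the blocked TE fits. The labels do not state such pairs, and the main TE fit took the libraries as independent. The members and lists were chosen with earlier results of these data known. Named were all 10 members, Rnmt, up to 2 genes of each list with the largest rise and 2 with the largest fall past the threshold in each comparison, and the 5 genes most like Atf4. Psat1, Slc3a2, Oma1, Eif2b5, Xpot and genes given as not called were named after their values were seen. Alternatives were no TMM, DESeq2 1.42.0, the edgeR exact test, limma 3.58.1 (voom), no filter, at least 10 counts in every library, both strands, each replicate left out, a replicate block and, added later, Rnmt cKO 1 and 2 left out. A B cell marker of the first list is not reported here and was left out of the sums. RiboDiff, which the authors used for TE, was not used here. Values were summarised with pandas 2.3.3 and numpy 2.4.6 and drawn with matplotlib 3.10.9, under Python 3.11.15.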

Additional observations from a re-analysis of the deposited data

Results flagged for a closer look

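The effect of genotype on Atf4 differed between the kinds of library, since RPF rose relative to total RNA by 0.51 on the log2 scale by the interaction test of edgeR (adjusted p = 0.041), with each of the 3 Rnmt cKO pairs above each of the 3 control pairs. The call was lost when any of 5 of the 6 numbered pairs was left out, with log2 values from 0.39 to 0.61 over the 6.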

How the results depend on the processing

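The members called, 3 higher and 1 lower in total RNA, 4 higher and 0 lower in RPF and 1 higher and 0 lower in TE, were 1 to 3 and 1 to 2, 2 to 4 and 0 to 1, and 0 to 1 and 0 with each replicate left out. With at least 10 counts in every library, 2 members were lower in total RNA (Atf5 added), and without TMM 0 were higher in TE. Over all genes, TE had 337 calls higher and 709 lower, 117 to 365 and 417 to 814 with a replicate left out. With Rnmt cKO 1 and 2 left out, the members called higher were 1 (total RNA), 1 (RPF) and 0 (TE), against 2188 genes higher and 2313 lower in total RNA, 468 genes higher and 523 lower in RPF, and 80 and 318 in TE. Fewer samples entered these fits. The B cell marker Cd79b, called in RPF at 2.19, was at -0.40 without Rnmt cKO 1 and 2 (adjusted p = 0.71). Psat1, Slc3a2, Oma1, Eif2b5 and Xpot, named after their values were seen, are not among the values that follow. Of 1446 values of 104 log2 fold changes of named genes under alternatives, 1271 kept sign and call, 146 lost a call and 3 gained one, and 26 changed sign, all of members that were not called. These were Asns in total RNA (0.038 without TMM, 0.0027 with DESeq2, 0.0015 with both strands, -0.23 to 0.21 with a replicate left out, 0.022 without Rnmt cKO 1 and 2), in RPF (-0.015 without a filter, -0.29 to 0.21 and -0.47) and in TE (-0.091 to 0.17 and -0.50), Cebpb with both strands (total RNA 0.047, RPF -0.034, TE -0.088) and in RPF with a replicate left out (-0.062 to 0.20), Trib3 in total RNA (-0.22 to 0.0056) and Atf5 in TE (-0.16 to 0.13, and -0.41 without Rnmt cKO 1 and 2). The cause of these was not tested. The replicate numbers do not pair the genotypes, since same-numbered libraries of control and Rnmt cKO deviated with r from -0.52 to -0.22 in total RNA and from -0.066 to 0.15 in RPF. With a replicate block, 2452 genes were higher and 2752 lower in total RNA and 1590 and 1642 in RPF, no call of a member changed, 7 other named genes lost their call in total RNA (Eif2s3x, Phgdh, Slc7a1, Maf, Ibtk, Cd79b and Ms4a1) and 5 in RPF (Pycr1, Lars, Ptp4a1, Ms4a1 and Ebf1), and Asns in RPF was at -0.0003. In TE, with 1 block for each genotype and number, 403 were higher and 787 lower and Atf4 was at 0.52 (adjusted p = 0.022). No call changed there among the genes that the naming rule gave for TE, which do not include Eif2b5. The TE level medians of the members, -0.64 in controls and -0.30 in Rnmt cKO cells, moved under the alternatives by less than their spread between libraries. These medians are different genes, Atf3 in controls and Atf4 in Rnmt cKO cells, and Atf3 itself was at -0.88 in Rnmt cKO cells. They show no shift of the members as a group, whose median TE change was 0.035 against 0.030 over all genes. Depth limits Chac1, Trib3 and the RPF of Ddit3 most.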
